A study of Mus musculus with 60 samples.

Results

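The fatty acid binding proteins are small carriers that hold fatty acids and other lipids in the cytoplasm. The 6 genes described here are Fabp1, Fabp2, Fabp3, Fabp4, Fabp5 and Fabp7, out of 19355 genes listed for cell samples and 17473 listed for liver samples. The group was chosen by the measured FPKM of Fabp4, which was among the genes that rose most in matured cells, so Fabp4 is described without a test wherever matured cells or hepatocytes enter the comparison. For the same reason no member was tested between matured cells and hepatocytes.

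Each member has its best known home. Fabp1 is the main carrier of hepatocytes, Fabp2 that of the intestinal lining, Fabp3 that of heart and muscle, and Fabp7 that of the developing brain. Fabp4 is the carrier of fat cells and is also made by macrophages and capillary endothelium, and Fabp5 is known from skin, fat tissue and macrophages. They take up fatty acids that enter the cell, bring them to enzymes of oxidation or storage, and can deliver them to the PPAR nuclear receptors, which in turn switch on several of these carrier genes.

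All samples are labelled wild-type C57BL/6. The study describes single-cell clones made from mice in which Albumin-Cre turns on a tdTomato reporter in hepatocytes, and the labels do not say whether the clone used here carries it. The cell samples, 33 in 11 groups of 3, were freshly isolated hepatocytes, hepatocytes put into culture with IL6, EGF and HGF and taken at passage 0 on day 3 or day 14 (IL6-iHPCs-D3 and IL6-iHPCs-D14, where iHPC stands for induced hepatic progenitor cell), 4 passaged lines of such cells, and the matured cells (IL6-iMHs) made from each line. The lines were IL6-iHPCs-mouse-1 and IL6-iHPCs-mouse-2 at passage 10 (P10), IL6-iHPCs-clone-1 at passage 20 (P20), which is a single clone grown from 1 hepatocyte, and IL6-iHPCs-mouse-1 at passage 35 (P35). Matured cells had spent a further 7 days in a medium with oncostatin M and without IL6, EGF and HGF. Dexamethasone was in both media, at a higher concentration in the maturation medium. The liver samples, 18 in 6 groups of 3, were normal liver and liver taken 6 h, 24 h, 3 days, 7 days and 14 days after removal of 2/3 of the organ (PHX), from mice 8 to 10 weeks old. The 3 samples of a cell group were technical repeats, so their spread and each p-value from it cover technical error and not variation between mice, and the labels do not say whether the 3 liver samples of a group were separate animals.

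Levels are in FPKM, read counts scaled by transcript length and by the sample's total, so levels of different genes can be compared. Whole read counts were recovered from the values, and samples held 49.3 M to 88.8 M reads on genes (cells) and 52.0 M to 79.2 M (liver). Changes are differences of log2(FPKM + 1) fitted with limma, a gene was called at an adjusted p under 0.05 and at least 2-fold, and 4 members in cells and 5 in liver passed the filter of 1 FPKM in 3 samples. One library stood apart from its group. The PHX-D3 replicate 2 library had a mean correlation of 0.892 with the other libraries of its group, the lowest of all liver libraries. The log2 changes of the tested members at PHX-D3 are given with and without it. Shares of the family, counts over all genes and correlations over groups are given with it only. Where the samples of groups are said not to overlap, such separation was not counted over all genes.

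Fabp4 and Fabp5 lie in 1 cluster of the family on chromosome 3, together with Pmp2, Fabp9 and Fabp12, that spans 288.9 kb. In the GRCm38 build Fabp5 lies at chr3:10012585-10016610 and Fabp4 at chr3:10204342-10208616. Fabp2 lies far from them on the same chromosome at chr3:122895072-122899506, Fabp3 at chr4:130308738-130315463, Fabp1 at chr6:71199879-71205034 and Fabp7 at chr10:57784923-57788450.

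Sequence upstream of 2 members is shown because both were high in hepatocytes and fell in culture. Fabp1 then rose in part, staying under its hepatocyte level in every cultured group, while Fabp2 did not. Both runs are RefSeq sequence of the plus strand of GRCm38.p6, chr6:71199629-71199826 for Fabp1 and chr3:122894822-122895071 for Fabp2, and each ends before the first annotated transcript base. Capitals mark the 13 bases that match, with 1 mismatch and on the reverse strand, the DR1 motif, AGGTCA followed by any base and AGGTCA again, a direct repeat that PPAR and other nuclear receptors are known to bind.
Fabp1: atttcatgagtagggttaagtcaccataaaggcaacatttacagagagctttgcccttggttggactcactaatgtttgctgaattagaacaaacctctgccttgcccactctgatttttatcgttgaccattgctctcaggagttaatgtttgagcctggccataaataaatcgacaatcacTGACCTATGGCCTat
Fabp2: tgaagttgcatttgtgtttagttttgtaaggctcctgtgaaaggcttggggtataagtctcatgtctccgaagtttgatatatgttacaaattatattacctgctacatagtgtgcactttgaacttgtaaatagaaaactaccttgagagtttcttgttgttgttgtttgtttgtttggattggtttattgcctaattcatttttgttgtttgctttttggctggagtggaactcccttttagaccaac
The match in Fabp1 lies at bases -67 to -55 from its RefSeq start, and a TATA box (TATAAA) follows at bases -30 to -25, beyond the stretch printed. The Fabp2 window held neither of these motifs. Neither the Fabp1 nor the Fabp2 window held a match, with up to 2 mismatches, to the HNF1 motif, GTTAAT followed by any base and ATTAAC. Among 32851 mouse promoters searched over the same 250 bases on both strands, 0.484% held the DR1 motif, 1.24% the HNF1 motif and 12.4% a TATA box, and the motifs searched do not overlap in Fabp1. A match describes letters only and was not tested as a site, and no link between these letters and the levels was tested.

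Among freshly isolated hepatocytes, Fabp1 made up nearly all of the family. Fabp1 stood at 4120, 3750 and 4220 FPKM, the 17th highest of 19355 genes by group mean, and held 97.6% ± 0.0924 (SD, n = 3) of the 6 genes' summed FPKM. Fabp5 stood at 59.3, 56.7 and 61.9 FPKM and Fabp2 at 38.0, 38.6 and 44.4 FPKM. Fabp4 was close to absent at 0.445, 0.434 and 0.358 FPKM, which rest on 18, 20 and 12 reads. The sum of 8 hepatocyte markers was 76400 to 82500 FPKM in these samples.

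At day 3 of culture with IL6 the hepatocyte carriers were almost gone. Of Fabp1, 0, 3 and 0 reads were left, against 397694 reads in the 3 hepatocyte samples, and the ratio of levels was 121200 (95% interval 41500 to 587700, from the read counts and covering counting error only). Fabp2 stood at 0.172 ± 0.0369 FPKM (SD, n = 3), below every hepatocyte sample. Fabp5 fell less, to 22.2, 36.1 and 23.7 FPKM, and all 3 samples lay under the hepatocyte samples. On the log2 scale Fabp1 fell by 11.93 (SE 0.199) and Fabp5 by 1.12 (SE 0.178), with limma adjusted p of 1.91e-29 and 1.05e-06. Fabp2 passed the filter only through the hepatocytes, so its difference of -5.14 is a description. Fabp1 and Fabp5 were thus called lower, where 66.0% of the 12328 genes tested were called, 12.1% lower and 53.9% higher. The median of all genes moved by 1.14 in this comparison, so the members fell against a background that rose. Without D3 replicate 1 the change of Fabp5 was -0.99 and no longer 2-fold.

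Fabp4 stood at 2.27, 3.59 and 1.71 FPKM on day 3, above its level in hepatocytes by 1.29 on the log2 scale, which is about the shift of the median gene, and after quantile normalization its difference was -0.14. Fabp3, the muscle carrier, had its highest level of all cell groups here, 0.247, 0.737 and 0.731 FPKM from 9, 32 and 28 reads, and overlapped the next group. The 8 hepatocyte markers summed to 601 to 716 FPKM on day 3, and of the markers of other cells Cd68, a lysosomal gene of macrophages, stood at 20.7 to 26.5 FPKM, against 0.548 to 0.768 FPKM in hepatocytes. The biliary markers summed to 355 to 529 FPKM, against 3.84 to 3.94 FPKM in hepatocytes, with 3 of 4 tested called higher, among them Spp1 and Sox9. Of the macrophage markers, Clec4f, Timd4 and Marco were at 0. Of 6 tested, 4 were called lower, among them Cd5l and Lyz2, and Cd68 alone was called higher. The macrophage list summed to 21.7 to 27.3 FPKM, against 22.1 to 25.6 FPKM in hepatocytes. The endothelial list summed to 12.9 to 14.9 FPKM, against 20.3 to 23.5 FPKM in hepatocytes. The part of such cells in these levels was not tested.

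Between day 3 and day 14 of the first culture 3 carriers rose. Fabp1 was back at 11.6, 10.3 and 12.2 FPKM, still far below hepatocytes. Fabp4 reached 13.7, 14.5 and 11.7 FPKM, and Fabp5 reached 97.9, 90.2 and 77.5 FPKM, above its level in hepatocytes. The groups did not overlap for any of the 3 genes, a separation between technical repeats that was not counted over all genes. The log2 changes were 3.59 (SE 0.199) for Fabp1, 2.05 (SE 0.157) for Fabp4 and 1.69 (SE 0.178) for Fabp5, with limma adjusted p of 1.41e-15, 2.37e-12 and 1.89e-09. These 3 members were called higher, where 10.2% of all genes were called, 5.12% higher and 5.05% lower. Fabp2 entered the fit only through the hepatocytes, so its difference of 0.07 is a description. In this step Pparg, the PPAR that fat cells use, rose by 1.27 on the log2 scale, and Cd36, which brings fatty acids into cells, rose by 3.51. Markers of other cells moved with these changes. The biliary sum went to 4060 to 4480 FPKM, with 4 of 4 tested called higher, and the stellate cell and fibroblast sum from 0.751 to 1.24 FPKM up to 25.2 to 27.0 FPKM, with Dcn called higher (4.13). Their part in the result was not tested.

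In the P10 lines Fabp1 and Fabp4 rose again, to levels that differed between the lines. Fabp1 stood at 971, 596 and 503 FPKM in IL6-iHPCs-mouse-1 (P10) and at 103, 123 and 124 FPKM in IL6-iHPCs-mouse-2 (P10). Fabp4 stood at 536, 353 and 296 FPKM in the former and at 153, 152 and 156 FPKM in the latter. For both genes every mouse-1 sample lay above every mouse-2 sample, and replicate 1 of mouse-1 was the highest for Fabp1, Fabp4 and Fabp5. Against day 14 the mean of the 2 lines was higher by 4.50 (SE 0.172) for Fabp1 and by 4.09 (SE 0.136) for Fabp4 on the log2 scale, with limma adjusted p of 9.03e-20 and 2.76e-21. Fabp5 was higher by 0.86 (SE 0.154, limma adjusted p 1.34e-05), which is under 2-fold. The difference of Fabp2 (-0.13) is again a description. Pparg was called lower in this step (log2 change -1.12), from 1.86 to 2.63 FPKM on day 14 to 0.144 to 0.79 FPKM in the P10 lines. Thus Fabp1 and Fabp4 were called higher and Fabp5 was not called, where 13.5% of all genes were called, 4.61% higher and 8.89% lower. The comparison also changes the mouse, the passage and the time in culture together, and these cannot be told apart.

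The lines at later passage split the family. In mouse-1 cells Fabp1 fell between P10 and P35 to 5.42, 3.00 and 4.40 FPKM and Fabp4 fell to 35, 29.7 and 31.5 FPKM. Fabp5 rose over the same passages to 571, 531 and 552 FPKM, from 250, 120 and 118 FPKM at P10. The samples of these groups did not overlap for any of the 3 genes. Such separation was not counted over all genes, and the samples of a group are technical repeats. The log2 changes were -7.00 (SE 0.199) for Fabp1, -3.54 (SE 0.157) for Fabp4 and 1.85 (SE 0.178) for Fabp5, with limma adjusted p of 3.42e-23, 1.95e-18 and 1.15e-10. Fabp1 and Fabp4 were called lower and Fabp5 higher, where 33.7% of all genes were called, 8.94% lower and 24.8% higher. By its share of the family's summed FPKM, Fabp5 went from 12.8% to 93.8%, and Fabp1 from 55.3% to 0.722%.

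IL6-iHPCs-clone-1 (P20) held the highest Fabp5 of all 33 cell samples, at 1200, 1230 and 1380 FPKM, and Fabp5 was there the 39th highest of all genes. Fabp1 stood at 99.2, 116 and 141 FPKM and Fabp4 at 257, 234 and 274 FPKM. Against the mean of the 2 P10 lines Fabp5 was higher by 2.98 (SE 0.154, limma adjusted p 8.09e-17) and Fabp1 lower by 1.23 (log2 change -1.23, SE 0.172, adjusted p 1.65e-07), and Fabp4 did not pass (0.07, adjusted p 0.649, and -0.48 after quantile normalization). Among all genes 26.6% were called, 19.7% higher and 6.88% lower. Fabp2 was higher by 0.68, under 2-fold at the pseudocount of 1 that was used, and stood at only 0.82 ± 0.363 FPKM (SD, n = 3). It entered the fit only through the hepatocytes, so this difference is a description. The clone comes from 1 hepatocyte, so what is clonal and what comes with the passage cannot be told apart.

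**Figure D1:**
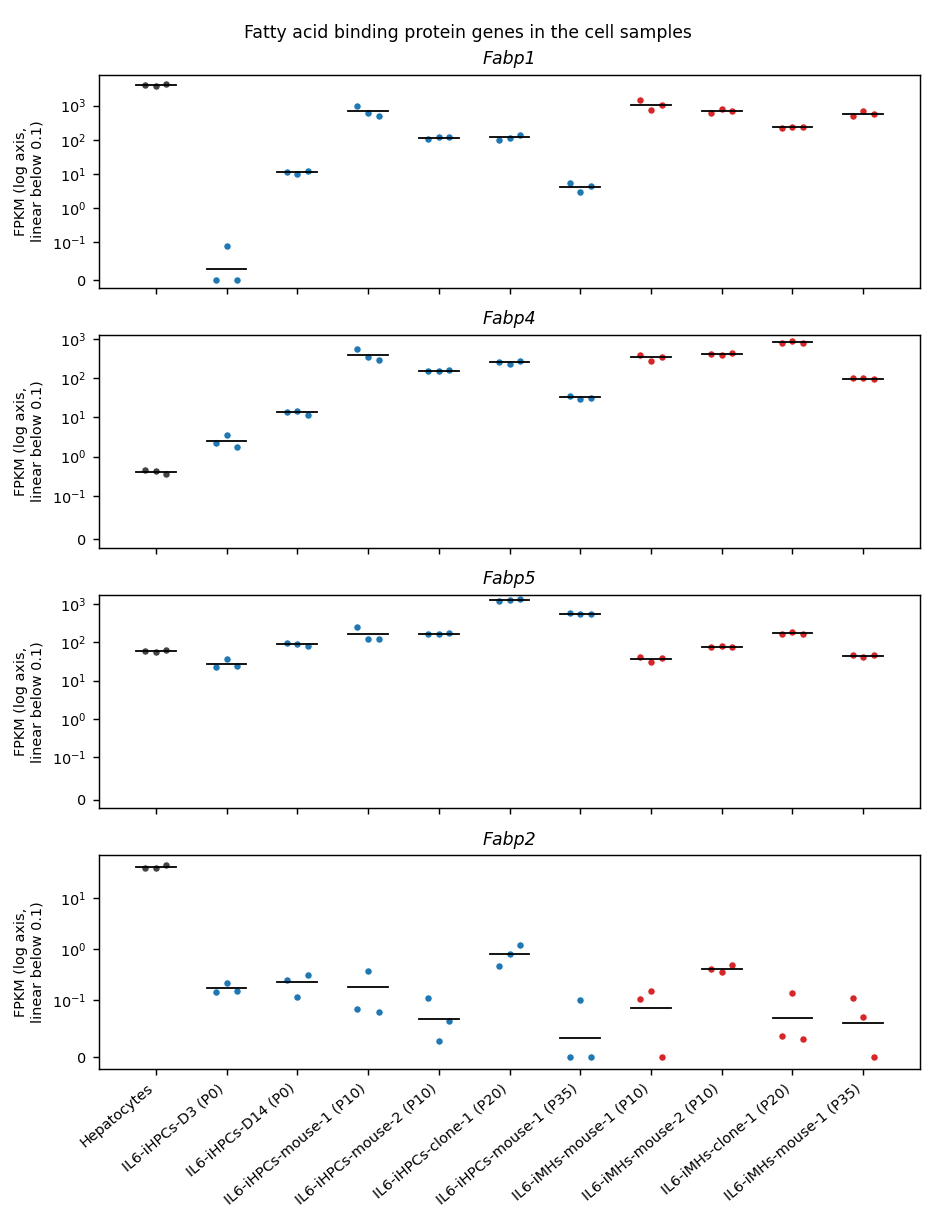
FPKM of 4 members in each of the 33 cell samples, by group, on an axis that is logarithmic above 0.1 FPKM and linear below. Points are samples (dark grey hepatocytes, blue IL6-iHPCs, red IL6-iMHs) and black bars group means; Fabp4 lies under 0.5 FPKM in hepatocytes and at 92.0 FPKM or more in every IL6-iMH sample, and Fabp2 is high in hepatocytes alone.

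Maturation moved Fabp1 and Fabp5 in opposite directions. Fabp1 rose over the 4 lines by a mean of 2.76 on the log2 scale (SE 0.1, limma adjusted p 3.43e-21), and Fabp5 fell by 2.41 (SE 0.089, adjusted p 6.59e-21). Mouse-1 enters these means at both P10 and P35, and each SE covers technical repeats and not the spread over lines. Among all genes 28.1% were called, 6.68% higher and 21.4% lower. The direction of Fabp5 was the same in each line. Its samples did not overlap between IL6-iHPCs and IL6-iMHs in any of them, a separation that was not counted over all genes. After maturation Fabp5 stood at 40.8, 30.3 and 39.6 FPKM in mouse-1 (P10), at 74.5, 77.4 and 73.4 FPKM in mouse-2 (P10), at 168, 187 and 164 FPKM in the matured clone and at 45.7, 41.6 and 47.5 FPKM in mouse-1 (P35). The log2 changes of Fabp5 were -2.03, -1.15, -2.87 and -3.59 in that order, each called. The genes called in these lines were 25.0% of all (9.59% higher and 15.4% lower), 39.9% (11.2% and 28.6%), 23.6% (5.86% and 17.7%) and 45.3% (10.2% and 35.1%).

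The rise of Fabp1 differed between the lines. In the mouse-1 (P35) line Fabp1 went from under 6 FPKM to 490, 710 and 568 FPKM, a log2 change of 6.81 (SE 0.199, limma adjusted p 4.17e-23). In the mouse-2 (P10) line it went to 631, 791 and 703 FPKM (2.59, SE 0.199, adjusted p 6.37e-13), and in the clone to 229, 243 and 237 FPKM (1.00, SE 0.199, adjusted p 4.38e-05), which sits on the 2-fold threshold and was lost without any of 4 of its 6 samples, with values from 0.88 to 1.13 over the samples left out. In the mouse-1 (P10) line, already the highest, the samples of 1420, 734 and 1060 FPKM overlapped those before maturation (0.64, SE 0.199, adjusted p 0.00441, under 2-fold), and after quantile normalization the change was 0.03. A limma F test of the line by maturation interaction gave an adjusted p of 5.49e-18 for Fabp1 and 2.38e-09 for Fabp5, and 96.3% of all genes passed that test.

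Fabp4 after maturation stood at 396, 272 and 354 FPKM in mouse-1 (P10), at 412, 380 and 443 FPKM in mouse-2 (P10), at 774, 858 and 796 FPKM in the clone and at 98.5, 100 and 92.0 FPKM in mouse-1 (P35). It was higher than before maturation in every sample of 3 lines and overlapped in mouse-1 (P10). The log2 differences, given without a test, were -0.18 in mouse-1 (P10), 1.42 in mouse-2 (P10), 1.67 in the clone and 1.57 in mouse-1 (P35), and the first became 0.06 without IL6-iHPCs-mouse-1 (P10) replicate 1. After quantile normalization they were -0.81, 0.60, 1.67 and 1.87 in the same order. The order of Fabp4 over the matured lines was thus clone-1 first and mouse-1 (P35) last, with the P10 lines overlapping each other between them.

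**Figure D2:**
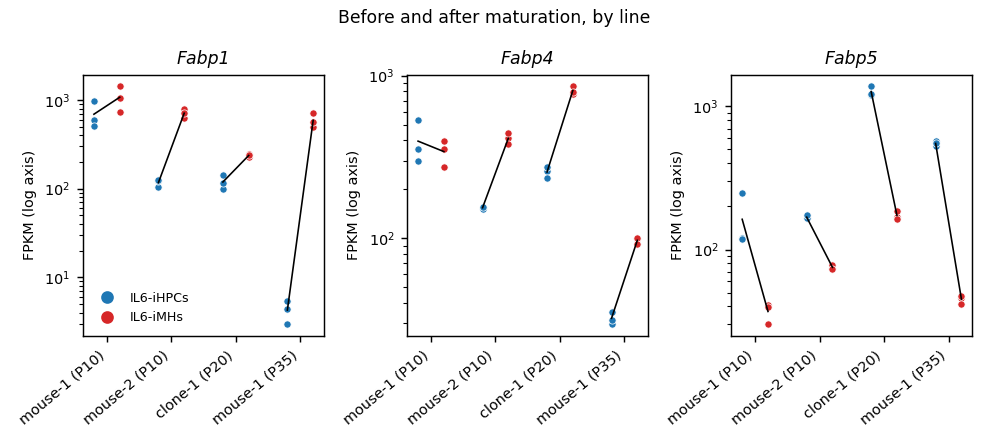
FPKM of Fabp1, Fabp4 and Fabp5 on log axes before (blue) and after (red) maturation in each of the 4 lines, with points for samples and lines joining group means. Fabp5 falls in all 4 lines, Fabp1 rises most from the low start of mouse-1 (P35), and Fabp4 is higher after maturation in 3 lines while its samples overlap in mouse-1 (P10).

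Set beside hepatocytes, the IL6-iMHs kept a different mixture of carriers. Over the 12 IL6-iMH samples Fabp4 ranged from 92.0 to 858 FPKM with a median of 388 FPKM, against under 0.5 FPKM in hepatocytes, a log2 difference of 7.84. Fabp1 ranged from 229 to 1420 FPKM, median 667 FPKM, and every sample lay under the hepatocyte samples (log2 difference -2.83). Fabp2 stayed at 0.491 FPKM or less in all 12 samples, against at least 38.0 FPKM in hepatocytes (-5.17). Fabp5 ranged from 30.3 to 187 FPKM around the hepatocyte level (0.20). The rule that chose these genes used this contrast, so these are levels and not results of a test, and among all genes 32.6% were called in it, 24.8% higher and 7.79% lower. The median of all genes was higher by 0.46, and after quantile normalization the difference for Fabp4 was 6.73. The hepatocyte markers summed to 60100 to 81400 FPKM in the same samples, a sum carried by the most abundant of them. Gene by gene, 4 of 8 were called lower than in hepatocytes and 0 higher, among them Cyp2e1 and Tat, at a median of -1.17.

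In shares of the family, hepatocytes held 97.6% Fabp1, and IL6-iMHs held 73.4% Fabp1 and 24.0% Fabp4 in mouse-1 (P10), 59.1% and 34.5% in mouse-2 (P10), 19.4% and 66.4% in the clone, and 80.3% and 13.4% in mouse-1 (P35). Fabp4 thus led the family in the matured clone and Fabp1 in the other 3 matured lines. IL6-iHPCs at day 3, day 14, clone-1 (P20) and mouse-1 (P35) were led by Fabp5, with 89.3%, 77.8%, 77.2% and 93.8%. Fabp5 also led narrowly in IL6-iHPCs-mouse-2 (P10), with 38.4% against 35% for Fabp4, and Fabp1 led in IL6-iHPCs-mouse-1 (P10) with 55.3%.

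**Figure D3:**
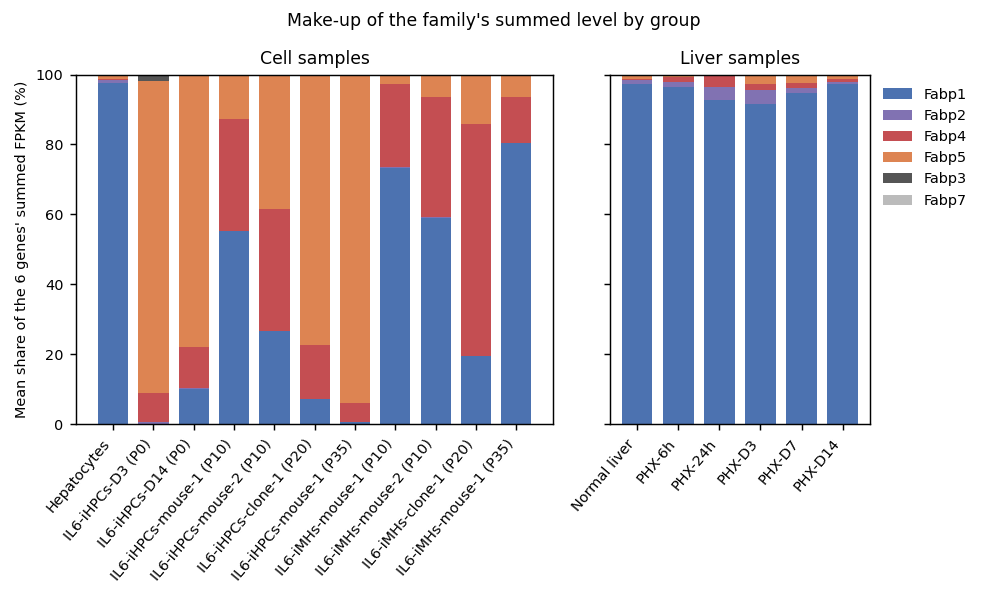
Mean share (%) that each member had in the summed FPKM of the 6 genes, stacked by group, for cell samples (left) and liver samples (right). Fabp1 fills 97.6% of the bar of hepatocytes and at least 91.5% in each liver group, while Fabp4 reaches 66.4% in IL6-iMHs-clone-1 (P20) and Fabp5 93.8% in IL6-iHPCs-mouse-1 (P35).

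Since fat cells, macrophages and endothelium also make Fabp4, their markers were set beside it. In the 12 IL6-iMH samples the fat cell hormone Adipoq was listed at 0, and Plin1, which coats the fat droplets of adipocytes, was at most 0.013 FPKM. Of 7 adipocyte markers 1 was at 1 FPKM or more in group mean, Cidec, which fuses lipid droplets and is also made by fatty hepatocytes. Cidec stood at 24.4 to 34.9 FPKM in 3 matured lines and at 177 to 190 FPKM in mouse-1 (P35), the line with the lowest Fabp4. Among macrophage markers Clec4f, Vsig4 and Timd4 were at 0 in all 4 matured groups, and among endothelial markers Cdh5, Clec4g and Emcn were at 0. The macrophage list summed to 1.46 to 40.9 FPKM, with Cd68 at 0.177 to 20.2 FPKM and Csf1r, a macrophage growth factor receptor, at 0.162 to 21.3 FPKM, and the endothelial list to 1.44 to 5.32 FPKM. With maturation Csf1r was called higher in mouse-1 (P10) (log2 change 1.87) and mouse-1 (P35) (4.22) and lower in mouse-2 (P10) (-1.28), and not called in the clone (0.09). Fabp4 stood at 92.0 FPKM or more in the same samples, and the part of other cells in it was not tested.

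The remaining members were close to silent in the cells. Fabp7 had 0 reads in all 12 IL6-iMH samples, which allows up to 0.00493 FPKM over the pool of them (3 reads), and 0 reads at day 3, at day 14 and in both P10 lines. Its highest count was 8 reads, in IL6-iHPCs-clone-1 (P20) and IL6-iHPCs-mouse-1 (P35). Fabp3 summed to 23 reads over the 12 IL6-iMH samples and 32 reads over the 12 passaged IL6-iHPC samples. Neither gene passed the filter.

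Genes of the same pathways were followed through these steps. In the PPARgamma and fat storage list 6 of 12 genes could be tested, and 4 of them were higher in IL6-iMHs than in hepatocytes, led by Cd36 (log2 change 6.78) and Cidec (4.66), with 0 lower and a list median of 2.90 against 0.46 for all genes. With maturation 2 of the 6 were higher and 0 lower in the mean of the lines, Cidec by 3.77 and Cd36 by 1.09. Cidec was called higher in each line, and Cd36 in mouse-1 (P35) alone (4.37), with 0.24 in mouse-1 (P10), -0.51 in mouse-2 (P10) and 0.28 in the clone. The list stood at a median of 0.86 against -0.40 for all genes. In the PPARalpha target list, which holds oxidation and ketone enzymes, 5 of 15 were higher with maturation and 0 lower, among them Cyp4a10 (4.66), at a median of 0.82. Ppara itself rose by 2.17 with maturation and Ppard fell by 1.02, while the mean change of Pparg was 0.40, under 2-fold. By line Pparg was called higher in both P10 lines (1.05 and 1.04) and not in clone-1 (P20) (-0.35) or mouse-1 (P35) (-0.16).

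Between P10 and P35 of mouse-1 several of these lists were lower, as Fabp1 and Fabp4 were. Of the 15 PPARalpha targets 9 were lower and 0 higher, among them Pdk4 (log2 change -3.27), at a median of -1.57 against 0.36 for all genes. Ppara was lower by 2.93 (log2 change -2.93) and Pparg, in the opposite direction, higher by 2.84. Of 13 uptake and activation genes tested 8 were lower and 0 higher, led by Cd36 (-4.86), the uptake receptor, and Slc27a5 (-3.65), an acyl-CoA ligase of liver. Of 17 genes of triglyceride making and lipolysis 10 were lower, led by Plin5 (-3.73) and Apob (-3.12), and 2 higher, Plin3 and Abhd5. The PPARgamma and fat storage list was split, with 3 of 6 lower, among them Cd36 and Plin4 (-2.45), and 2 higher, Lpl (3.48) and G0s2 (1.04).

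The genes most like each member over the 11 cell groups were found by the correlation of group means of log2(FPKM + 1), a description over groups that share lines. For Fabp4 these were Vldlr (r = 0.933), Cd36 (0.929) and Herpud1 (0.924). Vldlr, a lipoprotein receptor, stood at under 0.1 FPKM in hepatocytes and at 14.7 to 54.2 FPKM in IL6-iMHs. For Fabp1 they were Adhfe1 (0.968), Msra (0.964) and Apoc1 (0.951), for Fabp5 Ifi204 (0.938), Tcam1 (0.934) and Pilra (0.925), and for Fabp2 Slc13a2 (0.994), Coro1a (0.994) and Cyp2c37 (0.99). The last 3 values rest mostly on 1 group, since Fabp2 was above 1.2 FPKM in hepatocytes alone.

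In liver after PHX Fabp4 rose early, Fabp5 fell early, and Fabp1 was lower later. Fabp1 remained the leading carrier throughout, at 91.5% to 97.4% of the family's summed FPKM by group mean. The lowest mean was that of PHX-D3, where single samples ranged from 81.6% to 97.0%. In bulk liver a change in the number of cells of a type and a change in RNA per cell cannot be told apart.

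Fabp4 stood at 20.3, 25.1 and 25.9 FPKM in normal liver. It rose to 61.0, 63.9 and 84.4 FPKM at 6 h and to 199, 205 and 89.3 FPKM at 24 h, and no sample of these groups overlapped normal liver. The log2 changes were 1.51 (SE 0.344, limma adjusted p 0.00199) and 2.65 (SE 0.344, adjusted p 8.54e-05). At later times Fabp4 stood at 27.9, 51.4 and 23.5 FPKM on day 3, at 55.4, 34.4 and 35.7 FPKM on day 7 and at 20.3, 30.5 and 14.2 FPKM on day 14, with log2 changes of 0.44, 0.77 and -0.18 that did not pass (adjusted p 0.35, 0.108 and 0.78). Without PHX-D3 replicate 2 the day 3 change of Fabp4 was 0.11. Every day 7 sample was above every normal sample, though that change was not called. Separation from normal liver, here and at 6 h and 24 h, was not counted over all genes.

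Fabp5 moved the other way at the same early times. It stood at 70.6, 48.7 and 132 FPKM in normal liver, a wide spread set by replicate 3, at 14.4, 29.2 and 42.4 FPKM at 6 h and at 40.7, 19.3 and 13.8 FPKM at 24 h. The log2 changes were -1.52 (SE 0.435, limma adjusted p 0.00886) and -1.75 (SE 0.435, adjusted p 0.00698). The call at 6 h was lost without normal liver replicate 3 (-1.13, adjusted p 0.054) or without PHX-6h replicate 1 (-1.11, adjusted p 0.055), and the call at 24 h held in each case. On days 3, 7 and 14 Fabp5 did not pass, with log2 changes of -0.54, -0.25 and -0.64, and the first was -0.54 without PHX-D3 replicate 2 too.

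Fabp2, the intestinal carrier, peaked at 24 h. It stood at 68.1, 86.4 and 70.0 FPKM in normal liver, at 68.5, 55.1 and 72.4 FPKM at 6 h and at 174, 197 and 178 FPKM at 24 h, where each sample was above every normal sample (log2 change 1.29, SE 0.345, limma adjusted p 0.0105). That separation was not counted over all genes. On day 14 Fabp2 had dropped below normal liver to 26.9, 20.4 and 18.8 FPKM (-1.73, SE 0.345, limma adjusted p 0.00309). On day 3 replicates 1 and 3 stood at 42.1 and 41.2 FPKM and replicate 2 at 146 FPKM, so the log2 change was -0.23 (adjusted p 0.646) with all samples and -0.82 (adjusted p 0.0044, under 2-fold) without replicate 2.

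Fabp1 stood at 6590, 8640 and 6090 FPKM in normal liver, the 10th highest gene. Each later sample was below each normal sample, a separation that was not counted over all genes. At 6 h and 24 h its changes did not pass (-0.60, adjusted p 0.149, and -0.54, adjusted p 0.234). It fell to 3430, 1170 and 3360 FPKM on day 3 (log2 change -1.56, SE 0.337, limma adjusted p 0.00389) and to 3090, 2550 and 2760 FPKM on day 7 (-1.33, SE 0.337, adjusted p 0.0076). On day 14 it stood at 4080, 3500 and 3110 FPKM, with a change of -0.99 that did not pass (adjusted p 0.0564). Without PHX-D3 replicate 2, the lowest sample, the day 3 change was -1.05 (adjusted p 0.0035) and still called.

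Fabp7 was low in liver. It stood at 2.36, 5.86 and 4.49 FPKM in normal liver, at 1.42, 1.48 and 1.44 FPKM at 6 h, at 3.43, 4.90 and 4.26 FPKM at 24 h, at 3.00, 12.3 and 3.39 FPKM on day 3, at 10.6, 5.63 and 5.82 FPKM on day 7 and at 0.892, 0.961 and 0.642 FPKM on day 14. It was called lower at 6 h (log2 change -1.04, SE 0.366, limma adjusted p 0.0265) and on day 14 (-1.46, SE 0.366, adjusted p 0.0128), and not at the other times. The call at 6 h was lost after quantile normalization (-0.75, adjusted p 0.12) and without any of 5 of the 6 samples compared, and the call on day 14 without normal liver replicate 2 (-1.23, adjusted p 0.076) or PHX-D14 replicate 3 (-1.38, adjusted p 0.052). Its day 3 change of 0.29 was -0.26 without replicate 2.

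Over the 5 times, members called against normal liver were 1 higher and 2 lower at 6 h, where 16.3% of 11114 genes tested were called, 4.78% higher and 11.5% lower. At 24 h 2 were higher and 1 lower, where 7.90% of genes were called, 3.74% higher and 4.16% lower. On day 3 Fabp1 alone was called, lower, where 5.82% of genes were called, 3.33% higher and 2.49% lower. On day 7 Fabp1 alone was again called lower, where 8.84% of genes were called, 7.81% higher and 1.03% lower. On day 14 Fabp2 and Fabp7 were lower, where 2.98% of genes were called, 0.981% higher and 2.00% lower. All 5 comparisons share the 3 normal liver samples. The median of all genes moved by -0.28 at 6 h and 0.13 on day 7, and by less than 0.1 at the other times.

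**Figure D4:**
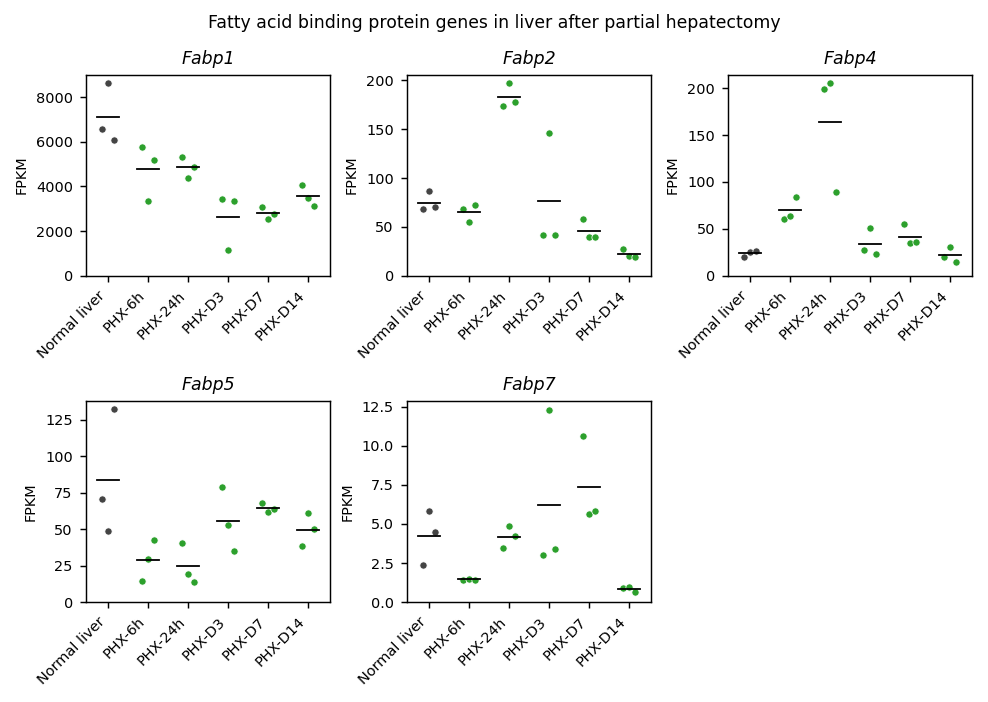
FPKM of 5 members in each of the 18 liver samples, by time after PHX, on linear axes that start at 0, with points for samples and bars for group means. Fabp4 and Fabp2 peak at 24 h, Fabp5 is low at 6 h and 24 h, Fabp1 is lowest on days 3 and 7, and 1 day 3 sample stands apart from the other 2 for Fabp1, Fabp2 and Fabp7.

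The 10 macrophage and Kupffer cell markers summed to 225 to 364 FPKM in normal liver, 86.1 to 165 FPKM at 6 h, 203 to 231 FPKM at 24 h, 208 to 630 FPKM on day 3, 1310 to 1910 FPKM on day 7 and 150 to 210 FPKM on day 14. In 5 of 6 groups the sample with the highest sum also had the highest Fabp7 of its group, and PHX-24h was the exception. Such matches were not counted for other genes, and at 6 h Fabp7 spanned only 1.42 to 1.48 FPKM. The median sum was lowest at 6 h (123 FPKM), while mean Fabp7 was lowest on day 14 (0.832 FPKM). On day 7 Fabp7 was not called (log2 change 0.68, limma adjusted p 0.178). All 10 markers were called higher on day 7, and Vsig4, a Kupffer cell receptor, was among the 3 genes most like Fabp7 over the 6 liver groups (r = 0.951), after Sdpr (0.97) and Sumo2 (0.953). Fabp4 was highest at 24 h, when the macrophage sum (203 to 231 FPKM) lay under or at the low end of that in normal liver (225 to 364 FPKM) and the endothelial markers summed to 88.3 to 102 FPKM, against 134 to 140 FPKM in normal liver. On day 7 the endothelial sum was 185 to 284 FPKM, with 4 of 10 markers called higher, and PHX-D7 replicate 1 had the highest endothelial sum, macrophage sum and Fabp4 (55.4 FPKM) of its group. The part of macrophages or endothelium in Fabp4, Fabp5 or Fabp7 was not tested.

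Cidec was set beside Fabp4 in each liver sample. It stood at 1.62 to 1.99 FPKM in normal liver, at 75.7, 89.3 and 103 FPKM at 6 h and at 5.05, 49.3 and 100 FPKM at 24 h, and the 24 h sample with the most Cidec, replicate 3, had the least Fabp4 of the 3. Of 7 adipocyte markers Adipoq and Lep were at 0 at 6 h and 24 h, and Retn and Adig at 6 h. The other markers were detected at 24 h. At both times 1 of the 7, Cidec, stood at 1 FPKM or more in group mean, and on days 7 and 14 2 did. On day 14 the 7 markers summed to 3.3, 39.0 and 3.57 FPKM, and replicate 2, the highest, had Adipoq at 2.58 FPKM. That sample also had the highest Fabp4 of its group, 30.5 FPKM. The PHX-D3 replicate 2 library, which stood apart, held 191 FPKM of Cidec and 18000 FPKM of Apoa4, a lipoprotein protein of gut and fatty liver, against at most 2.12 and 301 FPKM in the other samples of its group. The part of fat tissue or of stored fat in Fabp4 was not tested.

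**Figure D5:**
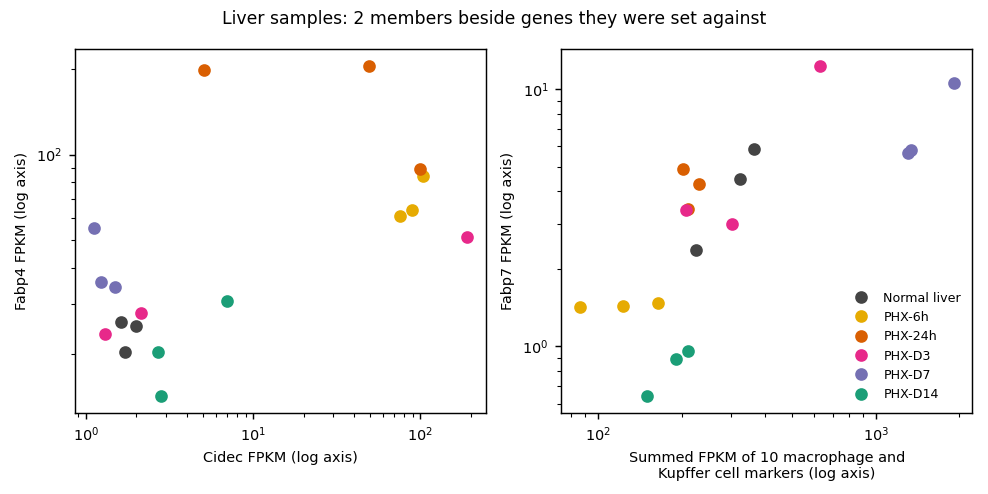
Left, Fabp4 against Cidec, and right, Fabp7 against the summed level of 10 macrophage and Kupffer cell markers, in FPKM on log axes, 1 point per liver sample coloured by time after PHX. The 6 h samples are high in Cidec with Fabp4 at 61.0 to 84.4 FPKM, the 24 h samples span 5.05 to 100 FPKM of Cidec, and Fabp7 is lowest on day 14, when the marker sum is 150 to 210 FPKM.

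The pathway lists in liver showed the early times most. In the PPARgamma and fat storage list 3 of 6 genes tested were higher at 6 h and 4 at 24 h, led at 24 h by Cidec (log2 change 3.50) and Cd36 (2.10), and Lpl was lower at both times (-1.10 and -1.16). Of 15 PPARalpha targets 6 were higher and 0 lower at each of these times, led by Pdk4 (6.52) and Acot1 (2.61) at 6 h and by Cyp4a14 (4.05) at 24 h. Neither Ppara nor Pparg was called at 6 h or 24 h, and on day 7 Pparg was higher by 1.02. On day 14, 0 of the 15 targets were called. Over the 6 group means Fabp4 was most like Saa3 (r = 0.997), an acute phase protein, Spcs2 (0.994) and Pole4 (0.968), Fabp1 most like Mup3 (0.972), Ccl25 (0.971) and Mup20 (0.961), Fabp2 most like Psmc6 (0.995), Acp1 (0.994) and Bbip1 (0.993), and Fabp5 most like Mvd (0.991), an enzyme of sterol synthesis, Wbscr27 (0.99) and Lrit1 (0.988).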

How the data were processed

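The authors deposited FPKM, 1 value per gene and sample, for 33 cell and 18 liver samples. Submitters' processing notes name TopHat 1.4.1, Cufflinks 1.3.0 and mm10. The 9 samples of the day 7 table were not used here. The smallest steps between values were used to turn FPKM back into reads, and whole reads came out (within 0.03) for 99.99% of genes and 99.9% to 100.0% of the scaling total. A read is the smallest unit counted, single or pair.

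Genes at 1 FPKM or more in 3 samples (12328 and 11114) entered a limma fit (version 3.58.1, R 4.3.3) of log2(FPKM + 1) that used the trend option and every group of a table. Adjusted p-values are Benjamini-Hochberg values across the genes that entered. Fold changes on this scale understate low genes. Read recovery and ranges used Python 3.11.15. In simulated data 200 genes were changed, with normal noise of each gene's residual spread. At a change of 1.5 (log2) 100 of 100 were called in the cell design and 93 of 100 in the liver design. At a change of 3 they were 100 and 97 of 100. Wrong calls were 0 in cells and 4 in liver. The simulation held no variation between mice in cells and far fewer changed genes than the D3 comparison, so it does not measure the error rate in these data. An exact permutation test of 3 against 3 cannot go below p = 0.1, so none was used. The members, gene lists and tests were chosen with earlier results of these data known. Named beside the members are relatives past the filter, up to 2 rises and 2 falls per list, the 3 genes most like each member, and marker genes at or near 0. Apoa4, Ppard, Pparg, Cidec, Cd36, Cd68, Csf1r and Dcn were given, after their values were seen, where a result turned on them. Alternatives were a pseudocount of 0.1, no filter, 5 FPKM, quantile normalization, a replicate block, voom on recovered reads, no fold threshold and leaving out each sample. Some genes that the rule names are not reported here.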

Additional observations from a re-analysis of the deposited data

Results flagged for a closer look

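The change of a gene with maturation was compared between the 4 lines by an interaction test (limma F test, Benjamini-Hochberg over all genes). Of all genes, 96.3% passed this test, so passing it does not set a member apart. For Fabp1 the lines differed at an adjusted p of 5.49e-18, with log2 changes of 0.64 in mouse-1 (P10), 2.59 in mouse-2 (P10), 1.00 in the clone at P20 and 6.81 in mouse-1 (P35). For Fabp5 they differed at an adjusted p of 2.38e-09, from -1.15 in mouse-2 (P10) to -3.59 in mouse-1 (P35). For Fabp2 they differed at an adjusted p of 1.45e-07, from -0.75 in clone-1 (P20) to 0.41 in mouse-2 (P10), at levels of 1.19 FPKM or less. Fabp2 entered this fit only through the hepatocytes, which are not compared here, and its changes rest on few reads, so they moved to -2.42 and 1.66 at a pseudocount of 0.1 and to -3.55 and 2.68 with voom, and no weight is put on that p. The test rests on technical repeats of each line.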

How the results depend on the processing

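Calls on the members held under no filter and a filter at 5 FPKM. The difference of Fabp4 between IL6-iMHs and hepatocytes was 9.30 at a pseudocount of 0.1, 6.73 after quantile normalization and 9.56 with voom, an alternative on recovered reads, against 7.84. With no fold threshold 2 members were called in mouse-1 (P10) maturation instead of 1. Quantile normalization turned the sign of Fabp4 at D3 (-0.14) and in clone-1 against P10 (-0.48), and of Fabp2 at D14 against D3 (-0.02), P10 against D14 (0.10), in mean maturation (0.06) and on PHX-D3 (0.04). Without single samples the members called ranged from 1 to 2 in maturation of clone-1 (P20) and on PHX-D14 and from 1 to 3 at PHX-6h. At D3 they ranged from 2 to 3, a count that includes Fabp2, which is given above as a description only. The Fabp4 difference of IL6-iMHs ranged from 7.81 to 7.88. Changes not called that turned sign without 1 sample ranged as follows. Fabp4 ranged from -0.02 to 0.19 in clone-1 against P10, from -0.37 to 0.06 in mouse-1 (P10) maturation and from -0.45 to 0.07 on PHX-D14. Fabp2 ranged from -0.18 to 0.00 in mouse-1 (P10) maturation, from 0.00 to 0.08 in mouse-1 (P35) maturation and from -0.82 to 0.08 on PHX-D3. Fabp7 ranged from -0.25 to 0.26 at PHX-24h and from -0.26 to 0.61 on PHX-D3, and Fabp5 from -0.57 to 0.14 on PHX-D7.
The replicate numbers did not pair the samples (mean correlation of deviations -0.015 in cells and -0.0302 in liver), and with a replicate block the members called were 3 at PHX-6h and 2 at PHX-D14, as without it, and no call changed. Depth was not the limit for Fabp5, or for Fabp1 and Fabp4 outside their lowest groups. Fabp1 had 0, 3 and 0 reads at D3, and Fabp4 had 18, 20 and 12 reads in hepatocytes. Over the alternatives other than leaving out a sample, the Fabp1 change at D3 ranged from -16.92 to -11.31. Its change at D14 against D3 ranged from 3.28 to 8.45. Fabp3 and, in cells, Fabp7 rest on at most 32 reads a sample.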

Other observations

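Among relatives of the same protein family, Rbp2, a retinol carrier of the intestinal lining, was at 0 FPKM in the 3 hepatocyte samples, at 0.0395 to 1.45 FPKM in the 12 passaged IL6-iHPC samples and at 9.94 to 85.9 FPKM in the 12 IL6-iMH samples. It rose with maturation by 5.44 on the log2 scale in mouse-1 (P10), 5.16 in mouse-2 (P10), 3.42 in the clone at P20 and 4.17 in mouse-1 (P35), each called (limma adjusted p of 1.0e-28, 2.8e-28, 3.4e-24 and 8.7e-27). The matured lines of highest Rbp2, both P10 lines, are not the line of highest Fabp4, which was clone-1 (P20). Apoa4, a lipoprotein protein of gut and liver, stood at 63.7 to 508 FPKM in IL6-iMHs, above the 23.0 to 25.4 FPKM of hepatocytes.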
